A study of Mus musculus with 11 samples.

Results

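The 10 genes described here encode transcription factors of pluripotency and of the first cell lineages of the mouse embryo: Klf17, Klf4, Klf5, Pou5f1, Sox2, Nanog, Nr5a2, Tfap2c, Tead4 and Cdx2. They were picked by name, and each was found by its Entrez number among the 24421 genes of the count table. Klf17, Klf4 and Klf5 are Krüppel-like zinc finger proteins that bind GC-rich DNA. Pou5f1 (OCT4), Sox2 and Nanog form the core of the pluripotency network, in which OCT4 and SOX2 bind paired sites. Nr5a2, an orphan nuclear receptor, and Tfap2c, an AP-2 factor, act on early embryonic genes, while Tead4 stands upstream of Cdx2 in the trophectoderm, the outer layer that forms the placenta. In the mouse these factors come partly from the oocyte's stored RNA and partly from the embryo's own genome, whose main activation takes place at the 2-cell stage.

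The study measured RNA in ovulated oocytes, which rest in metaphase II of meiosis (MII), and in late 2-cell embryos, with and without maternal Daxx, whose protein escorts the histone variant H3.3 to chromatin. There were 4 groups: 2-cell embryos from knockout oocytes (2 libraries, replicates 2 and 3), control 2-cell embryos (3 libraries), knockout MII oocytes (3 libraries) and control MII oocytes (3 libraries). Each library held RNA of 50 oocytes or embryos pooled from 2 to 3 females, which the labels call a biological group. All oocyte donors carried the floxed allele Daxxtm2Led on both chromosomes (Daxx F/F) on a mixed C57BL/6J and 129/Sv background, were over 8 weeks old and received 5 IU of PMSG and 5 IU of hCG. Knockout females also carried Tg(Zp3-cre)93KnwMGI, a Cre recombinase driven by the promoter of the zona pellucida gene Zp3, which acts in growing oocytes, and control females did not. Loss of Daxx and presence of the transgene therefore cannot be told apart. Oocytes were taken 20 hours after hCG. Embryos were made by in vitro fertilisation with sperm of 8-week-old JF1 males, cultured in KSOM and collected 33 hours later, and those of knockout oocytes are labelled m-z+, with a paternal Daxx copy.

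Daxx itself had 22.8 and 25.5 CPM (counts scaled to a library total of 1e6) in maternal knockout embryos against 37.3, 35.2 and 46.7 CPM in control embryos. It had 8.20, 8.40 and 7.83 CPM in knockout oocytes against 97.2, 94.2 and 86.2 CPM in control oocytes, so every library followed its label. Counted reads per library numbered 17978192 to 25308468 in embryos and 32582998 to 39798586 in oocytes. The 10 oocyte markers (such as Gdf9 and Bmp15) summed to 1993 to 1996 CPM in maternal knockout embryos, 1505 to 1814 CPM in control embryos, 10124 to 10410 CPM in knockout oocytes and 9957 to 10230 CPM in control oocytes. The 10 markers of the 2-cell stage (such as Zfp352 and the Zscan4 genes) summed to 880 to 893 CPM, 794 to 949 CPM, 5.61 to 9.35 CPM and 3.94 to 4.30 CPM in the same groups. A list of 18 granulosa and cumulus markers summed to 121 to 149 CPM and 116 to 148 CPM in the embryo groups. Gja1 and Amhr2 led there. In knockout and control oocytes the list summed to 39.1 to 41.1 CPM and 35.1 to 39.1 CPM, led by Cyp19a1. Of its genes, Ptx3, Pgr and Nr4a1 were at 0 in all oocyte libraries. Another 6 (Cyp19a1, Cyp11a1, Has2, Star, Kitl and Fshr) had enough reads in oocytes to be tested. The share of reads in Lars2 set embryo libraries apart: it was 1.81% and 0.552% in maternal knockout embryos and 0.482%, 1.85% and 0.871% in control embryos, against 0.142% to 0.201% in oocytes.

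The order of the factors was read from CPM per kilobase of the gene length that the authors deposited, as group means; the CPM of each library follow below. In maternal knockout embryos, Klf17 stood far above the rest at 341 CPM per kilobase, followed by Pou5f1 at 79.0, Klf4 at 67.1, Nr5a2 at 56.4, Tfap2c at 31.4, Klf5 at 27.7, Tead4 at 15.6, Sox2 at 7.03, Nanog at 0.642 and Cdx2 at 0.183. Control embryos had the same order, with Klf17 at 328 CPM per kilobase, Pou5f1 at 74.8, Klf4 at 70.2, Nr5a2 at 61.6, Tfap2c at 32.2, Klf5 at 25.5, Tead4 at 16.7, Sox2 at 5.50, Nanog at 0.981 and Cdx2 at 0.339. Neighbours whose libraries overlapped, so that their order is not set, were Klf4 with Nr5a2 in maternal knockout embryos and, in control embryos, Pou5f1 with Klf4, Klf4 with Nr5a2 and Tfap2c with Klf5.

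Oocytes had a steeper order. Knockout oocytes had 271 CPM per kilobase of Klf17, 83.6 of Pou5f1, 19.2 of Tfap2c, 14.2 of Nr5a2, 7.32 of Klf4 and 1.70 of Sox2, and below them traces of Cdx2 (0.119), Klf5 (0.0785), Tead4 (0.0516) and Nanog (0.00787). Control oocytes had 273 CPM per kilobase of Klf17, 82.7 of Pou5f1, 17.7 of Tfap2c, 14.2 of Nr5a2, 6.15 of Klf4 and 0.797 of Sox2, with traces of Klf5 (0.112), Cdx2 (0.110) and Tead4 (0.0338) and no counted read of Nanog. Cdx2 overlapped with Klf5 and Klf5 with Tead4 in knockout oocytes, and Tfap2c with Nr5a2, Klf5 with Cdx2 and Cdx2 with Tead4 in control oocytes.

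**Figure D1:**
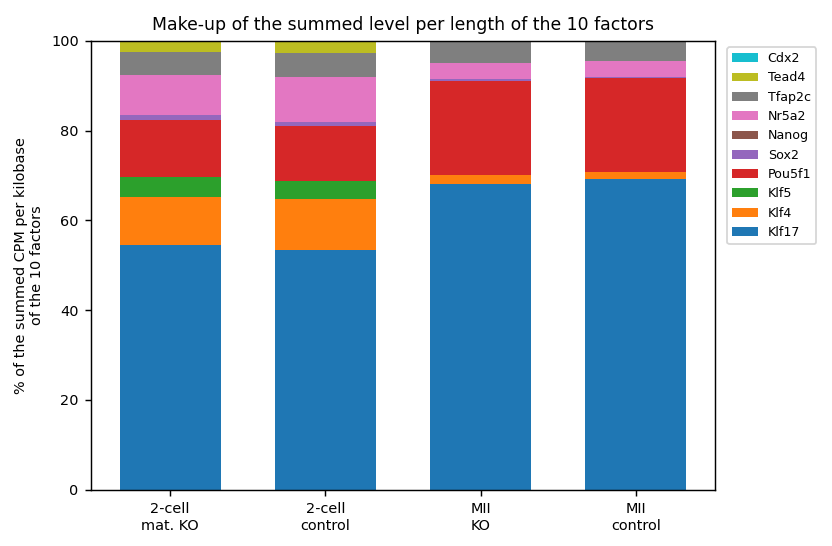
Make-up of the 10 factors in each group, as the percent (y axis) that each gene's mean CPM per kilobase gave of the sum over all 10, stacked by gene, with 2-cell embryos left of MII oocytes and knockout left of control within each stage. Klf17 made up 54.5% and 53.3% of the sum in maternal knockout and control embryos and 68.2% and 69.1% in knockout and control oocytes, while Klf4 made up 10.7% and 11.4% of the embryo sums and 1.84% and 1.56% of the oocyte sums.

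Within the Krüppel-like family the balance between members differed by stage. Per kilobase, Klf17 was 5.08 times Klf4 in maternal knockout embryos and 4.68 times in control embryos, against 37.0 times in knockout oocytes and 44.3 times in control oocytes. Klf17 over Klf5 was 12.3 and 12.9 in the embryo groups, against 3445 and 2439 in knockout and control oocytes, where Klf5 rested on 8 to 15 reads per library. The proportion of Pou5f1 to Sox2, the partners at paired sites, was 11.2 and 13.6 in maternal knockout and control embryos and 49.2 and 104 in knockout and control oocytes.

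The change between stages was the main feature of these genes. In both genotypes Klf5, Tead4, Nanog, Klf4, Sox2 and Nr5a2 rose at least 3.98-fold in embryos, Tfap2c rose 1.63-fold and 1.82-fold without maternal Daxx and in controls, and Klf17 1.26-fold and 1.20-fold. Pou5f1 did not pass the test in either genotype, nor did Cdx2 where it was tested. By edgeR's quasi-likelihood test at adjusted p under 0.05, 8 of the 10 genes were higher and 0 lower in embryos between the knockout groups, beside 80.2% of the 16592 genes tested (42.5% as higher, 37.7% as lower). In controls 9 of the 10 passed the filter on low counts, and 8 of these were higher and 0 lower, beside 83.1% of the 15577 genes tested (43.1% as higher, 40% as lower). Libraries of the stages did not overlap for 8 of the 10 genes between the knockout groups and 8 of the 9 in controls, each higher in embryos, beside 86.9% of all tested genes (46.4% as higher, 40.5% as lower) and 85% (44.3% and 40.7%). The median log2 change was 1.97 over the 10 genes tested between the knockout groups, against 0.09 over all genes, and 2.76 over the 9 genes tested in controls, against 0.07 over all genes. The control median stays the same when Nanog, without a counted read in control oocytes, is set to its bound, where it still lies above that median. Counts are shares of a library's reads, so the values do not give RNA per oocyte or embryo, and fewer expressing cells and less RNA per cell cannot be told apart in pooled samples.

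**Figure D2:**
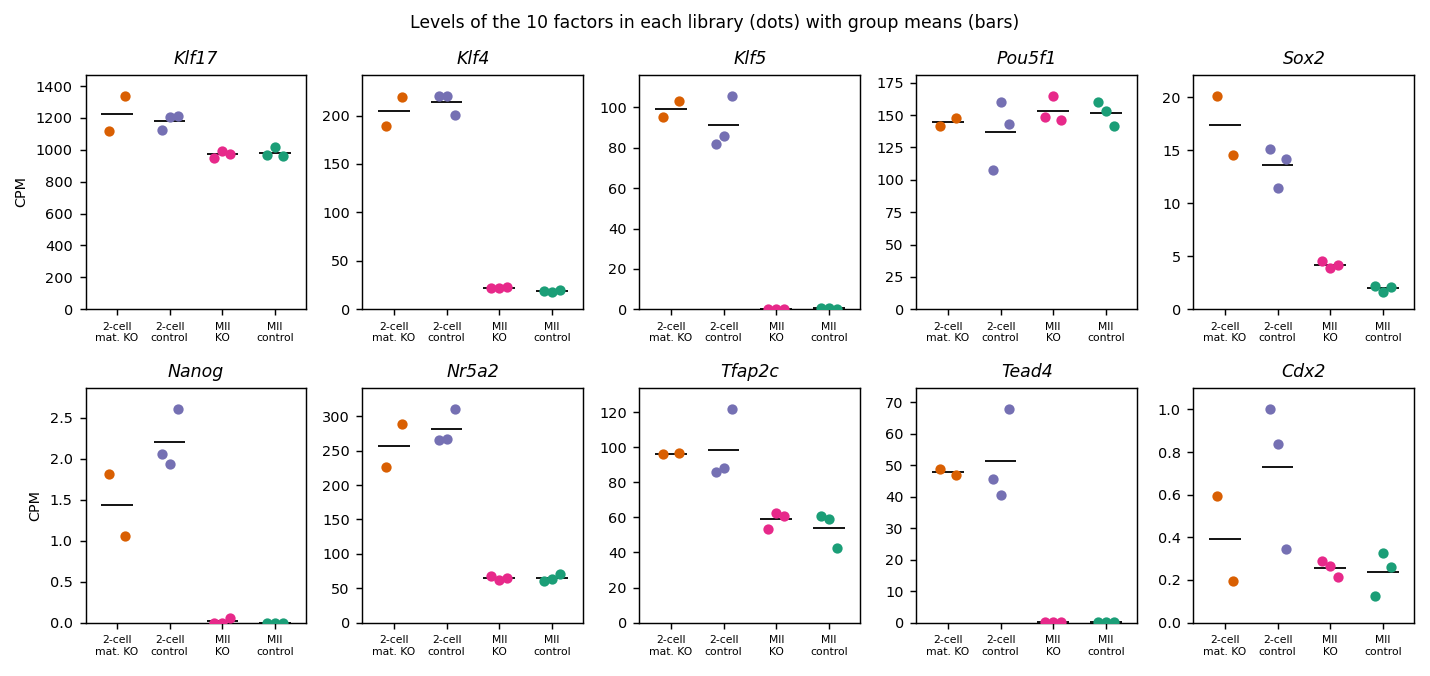
CPM (y axis, linear, starting at 0) of each of the 10 genes in each library (dots) with group means (bars), in the order 2-cell maternal knockout, 2-cell control, MII knockout and MII control. Klf5 and Tead4 lie near 0 in the 6 oocyte libraries and above 40 CPM in the 5 embryo libraries, and the Sox2 values of knockout oocytes (3.85 to 4.56 CPM) lie above those of control oocytes (1.61 to 2.18 CPM).

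Klf5 (chr14:99298691-99313412 in GRCm38, as are the positions below), which the blastocyst needs for both the trophectoderm and the inner cell mass in mice, was nearly silent in oocytes. It had 95.5 and 103 CPM in maternal knockout embryos and 81.7, 86.1 and 106 CPM in control embryos, against 0.367, 0.213 and 0.265 CPM in knockout oocytes and 0.460, 0.377 and 0.364 CPM in control oocytes. Every embryo library was above every oocyte library. The log2 change was 8.40 (SE 0.17, edgeR adjusted p = 6.14e-10) between the knockout groups and 7.80 (SE 0.18, adjusted p = 1.27e-11) in controls, which is 353-fold and 228-fold in mean CPM.

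Tead4 (chr6:128227143-128300813), the DNA-binding partner of the Hippo pathway's coactivators and needed for the trophectoderm, showed the same all-or-little pattern. Maternal knockout embryos had 48.8 and 46.9 CPM and control embryos 45.6, 40.5 and 67.8 CPM, against 4, 7 and 7 reads in knockout oocytes and 6, 3 and 2 reads in control oocytes. In CPM these reads made 0.105, 0.186 and 0.185 in knockout oocytes and 0.184, 0.0754 and 0.0521 in control oocytes. The change was 8.16 (SE 0.19, edgeR adjusted p = 1.14e-09; 301-fold in mean CPM) between the knockout groups and 8.92 (SE 0.33, adjusted p = 3.75e-10; 494-fold) in controls. Klf5 and Tead4 had the steepest changes among the members with reads in each oocyte library, and Klf4 came next.

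Nanog (chr6:122707489-122714633), the homeodomain factor of the inner cell mass, came from 0 or nearly 0 and stayed scarce. It had 46 and 22 reads (1.82 and 1.06 CPM) in maternal knockout embryos and 37, 37 and 60 reads (2.06, 1.93 and 2.60 CPM) in control embryos, against 0, 0 and 2 reads in knockout oocytes and 0 reads in each control oocyte library. Control embryos were at least 82.3-fold higher than control oocytes, with the oocytes set to a floor of 3 counts over the group (edgeR adjusted p = 1.1e-06). The ratio between the knockout groups was 83.9, with a 95% counting interval from 22.4 to 707 (adjusted p = 6.04e-05).

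Klf4 (chr4:55527137-55532475), a reprogramming factor and partner of OCT4 and SOX2 in embryonic stem cells, was already present in oocytes. It had 189 and 219 CPM in maternal knockout embryos and 220.3, 220.2 and 200.5 CPM in control embryos, against 22.1, 21.9 and 22.8 CPM in knockout oocytes and 18.9, 17.3 and 19.9 CPM in control oocytes. The log2 change was 3.15 (SE 0.10, edgeR adjusted p = 5.27e-09; 9.17-fold) between the knockout groups and 3.49 (SE 0.11, adjusted p = 9.21e-11; 11.4-fold) in controls. Every embryo library was far above every oocyte library.

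Sox2 (chr3:34649995-34652461), the HMG-box partner of OCT4, had 20.1 and 14.6 CPM in maternal knockout embryos and 15.1, 11.4 and 14.1 CPM in control embryos. It had 4.56, 3.85 and 4.16 CPM in knockout oocytes and 2.18, 1.61 and 2.11 CPM in control oocytes. All embryo libraries were higher than all oocyte libraries. The change was 2.00 (SE 0.17, edgeR adjusted p = 3.88e-06; 4.14-fold) between the knockout groups and 2.76 (SE 0.20, adjusted p = 1.16e-07; 6.90-fold) in controls.

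Nr5a2 (chr1:136842562-136960448), which binds the Pou5f1 promoter in mouse embryonic cells, had 226 and 288 CPM in maternal knockout embryos and 265, 267 and 310 CPM in control embryos. Oocytes had 67.9, 61.2 and 64.6 CPM with the knockout and 60.8, 62.7 and 70.5 CPM in controls. The groups of each stage lay close together, with no overlap between stages, and the change was 1.95 (SE 0.12, edgeR adjusted p = 3.45e-07; 3.98-fold) between the knockout groups and 2.09 (SE 0.10, adjusted p = 2.38e-09; 4.35-fold) in controls.

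Tfap2c (chr2:172545678-172558622), an AP-2 factor of the trophoblast and of germ cells, changed less. It had 96.2 and 96.7 CPM in maternal knockout embryos and 86.1, 88.4 and 122 CPM in control embryos, against 53.6, 62.6 and 60.9 CPM in knockout oocytes and 60.8, 59.4 and 42.6 CPM in control oocytes. Its change was 0.66 (SE 0.10, edgeR adjusted p = 0.000141; 1.63-fold) between the knockout groups and 0.84 (SE 0.16, adjusted p = 0.000337; 1.82-fold) in controls, with no overlap between stages.

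Klf17 (chr4:117756659-117765666), the highest member per kilobase, is known in the mouse for its expression in oocytes. Maternal knockout embryos had 1115 and 1338 CPM and control embryos 1125, 1203 and 1211 CPM, against 951, 991 and 976 CPM in knockout oocytes and 966, 1015 and 961 CPM in control oocytes. The change of 0.29 (SE 0.10, edgeR adjusted p = 0.0223) between the knockout groups passed the test in 8 of 12 alternatives and was 0.11 with adjusted p = 0.170 without maternal knockout embryo replicate 3. It was also lost without knockout oocyte replicate 1, 2 or 3 (adjusted p = 0.0772, 0.0538 and 0.0544). In controls the change of 0.24 (SE 0.08, adjusted p = 0.0119) passed in 11 of 13 alternatives and was lost without control oocyte replicate 1 or 3 (adjusted p = 0.0894 and 0.0514). Scaling by RLE in place of TMM moved the median of all genes to 0.18 between the knockout groups and 0.17 in controls, and with it the Klf17 change to 0.38 and 0.34, so that its distance from the median gene stayed small.

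Pou5f1 (chr17:35506032-35510777) had similar levels at both stages. It had 142 and 148 CPM in maternal knockout embryos and 108, 160 and 143 CPM in control embryos, against 149, 165 and 146 CPM in knockout oocytes and 160, 153 and 142 CPM in control oocytes. Embryo and oocyte libraries overlapped both between the knockout groups and in controls. The change was -0.13 (SE 0.08, edgeR adjusted p = 0.18) between the knockout groups and -0.17 (SE 0.13, adjusted p = 0.23) in controls. It passed as lower in embryos without maternal knockout embryo replicate 3 (-0.20, adjusted p = 0.0474) and without control embryo replicate 2 (-0.31, adjusted p = 0.0318). The Pou5f1 pseudogene Pou5f1-rs4, counted as a gene of its own, held at most 2.05 CPM in any library.

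Cdx2 (chr5:147300900-147307249), the caudal homeodomain factor of the trophectoderm, had 15 and 4 reads in maternal knockout embryos and 18, 16 and 8 in control embryos, against 11, 10 and 8 in knockout oocytes and 4, 13 and 10 in control oocytes. In CPM the values were 0.593 and 0.193 in maternal knockout embryos and 1.00, 0.836 and 0.347 in control embryos, against 0.288, 0.266 and 0.212 in knockout oocytes and 0.123, 0.327 and 0.260 in control oocytes. Between the knockout groups the change was 0.60 (SE 0.57, edgeR adjusted p = 0.35). In controls the gene did not pass the filter, and the summed reads gave a ratio of 2.87 with a 95% counting interval from 1.73 to 4.83.

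**Figure D3:**
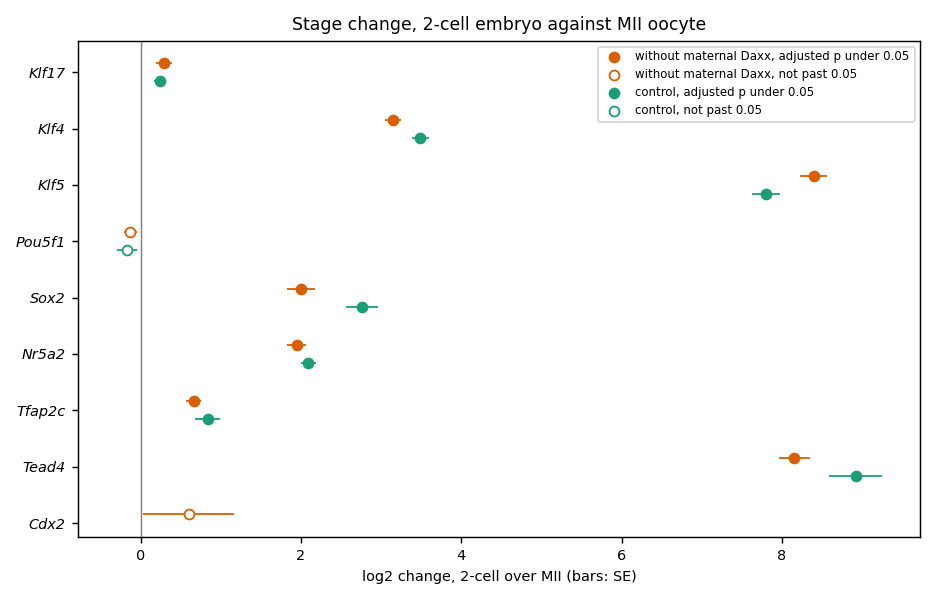
Log2 change between stages (x axis, 2-cell embryo over MII oocyte) for each gene without maternal Daxx (upper point of a pair) and in controls (lower point), with SE as bars and filled points for adjusted p under 0.05. Klf5 and Tead4 lie at 7.80 to 8.92, Klf4, Sox2 and Nr5a2 at 1.95 to 3.49, and Pou5f1 at -0.13 and -0.17; Nanog is not drawn, and Cdx2 is drawn for the knockout groups.

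Promoter sequence is shown for the 4 members with the largest changes among those called higher in both stage comparisons and listed in RefSeq's promoters (GRCm38.p6), because these genes moved the same way. The 250 bases upstream of the annotated start are written on the gene's strand. Nanog and Nr5a2 have 2 promoter entries each in the RefSeq table, and the entry at the outermost start of the gene is shown. Klf5, Tfap2c and Tead4, also called higher in both stage comparisons, had no entry. Bases just after the start were found in a GENCODE transcript of the gene for Klf4 and Nr5a2, but not for Nanog and Sox2. For Nanog and Sox2 the positions therefore rest on the RefSeq start alone. Capitals mark matches to the motifs searched on both strands. Nanog's stretch lies at chr6:122707239-122707488 (plus strand), Klf4 at chr4:55532476-55532725 (minus), Sox2 at chr3:34649745-34649994 (plus) and Nr5a2 at chr1:136960449-136960698 (minus).
Nanog promoter: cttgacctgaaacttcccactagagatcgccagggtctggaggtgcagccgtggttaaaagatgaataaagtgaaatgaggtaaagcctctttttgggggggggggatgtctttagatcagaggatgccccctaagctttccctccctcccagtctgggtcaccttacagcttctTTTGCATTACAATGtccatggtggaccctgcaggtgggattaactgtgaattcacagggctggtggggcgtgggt
Klf4 promoter: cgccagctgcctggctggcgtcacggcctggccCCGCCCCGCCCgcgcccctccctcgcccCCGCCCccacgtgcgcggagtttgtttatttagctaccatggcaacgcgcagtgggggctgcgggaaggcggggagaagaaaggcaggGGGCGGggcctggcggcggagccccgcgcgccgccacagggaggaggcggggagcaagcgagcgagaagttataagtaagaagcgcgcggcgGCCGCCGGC
Sox2 promoter: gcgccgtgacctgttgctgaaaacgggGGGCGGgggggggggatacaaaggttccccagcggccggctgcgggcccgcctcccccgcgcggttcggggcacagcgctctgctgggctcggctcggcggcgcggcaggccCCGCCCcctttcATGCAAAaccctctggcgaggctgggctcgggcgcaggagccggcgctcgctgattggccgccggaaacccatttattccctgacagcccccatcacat
Nr5a2 promoter: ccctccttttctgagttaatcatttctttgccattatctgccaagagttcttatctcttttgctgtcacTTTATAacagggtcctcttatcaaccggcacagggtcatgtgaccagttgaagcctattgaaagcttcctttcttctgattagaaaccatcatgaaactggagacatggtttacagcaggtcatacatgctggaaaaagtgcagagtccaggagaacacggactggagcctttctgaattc
The motifs were the GC box GGGCGG, the CACCC box CCACCC, the octamer ATGCAAA, the SOX site CATTGT, the AP-2 site GCCNNNGGC, the NR5A site TCAAGGNCA, the TEAD site GGAATG, the TATA box TATAAA and the SOX-octamer composite, which is the SOX site, any base and the octamer in a row, so that both of its parts overlap it by construction.

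The Nanog stretch held the composite on the opposite strand, from -75 to -62 relative to the start. The letters of the octamer and of the composite were settled after the Nanog sequence had been read, so their match there was fixed in advance. The composite was found in 1 of 27025 promoters (0.0037%), and for that reason this share is no measure of how unusual the Nanog match is. The Klf4 stretch held 4 GC boxes, at -217, -212, -189 and -101, of which those at -217 and -212 overlap by a base, and an AP-2 match at -9. The Sox2 stretch held 2 GC boxes, at -223 and -111, and an octamer at -99, while that of Nr5a2 held a TATA match at -181. GC content was 52.0% for Nanog, 74.0% for Klf4, 72.0% for Sox2 and 43.2% for Nr5a2. Of the 27025 promoters, 32.9% held a GC box, 27.7% a CACCC box, 4.06% an octamer, 11% a SOX site, 13.6% an AP-2 site, 12.6% a TEAD site, 13% a TATA box and 1.36% an NR5A site. A match describes the letters, and no match says only that they are not in this window.

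The comparisons of genotypes asked whether the factors differ without maternal Daxx. In oocytes, Sox2 was higher in the knockout and the other 7 tested members did not pass the test. Of the 8 members that passed the filter, 1 was called higher and 0 lower, beside 0.583% of the 14235 genes tested, 0.45% as higher and 0.133% as lower. Nanog and Tead4, with at most 7 reads in a library, were not tested.

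Sox2 had 174, 145 and 157 reads in knockout oocytes against 71, 64 and 81 in control oocytes. Its mean was 4.19 ± 0.353 CPM in knockout oocytes and 1.97 ± 0.311 CPM in control oocytes (SD, n = 3 each), and each knockout library was above each control library. The log2 change was 1.08 (SE 0.17, edgeR adjusted p = 0.0158), or 2.13-fold in mean CPM. It passed in 9 of 13 alternatives, with adjusted p between 0.000223 and 0.0971. It was lost without knockout oocyte replicate 1 or 3 (adjusted p = 0.0570 each) and without control oocyte replicate 1 or 2 (0.0623 and 0.0971), with log2 changes of 0.94 to 1.15 over the 6 fits that leave out a library.

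Sox2 lies inside the long noncoding gene Sox2ot (chr3:34560381-34677993). Sox2ot had 11, 9 and 7 reads in knockout oocytes and 0, 11 and 6 in control oocytes, and how overlapping genes and strand were counted is not stated in the labels or file headers. Granulosa and cumulus markers summed to 39.1 to 41.1 CPM in knockout oocytes and 35.1 to 39.1 CPM in control oocytes. The 10 markers of blood and stroma summed to 60.3 to 63.2 CPM in knockout oocytes and 52.7 to 63.5 CPM in control oocytes, most of it Pecam1 (57.4 ± 1.91 and 54.1 ± 6.4 CPM). Of the tested markers, 0 of 6 and 0 of 3 were called, with 1 and 2 at p under 0.05 before adjustment and median log2 changes of 0.16 and 0.71. The 3 at p under 0.05, named after their values were seen, lay higher with the knockout. The macrophage marker Cd68 had 2.37 ± 0.197 CPM in knockout oocytes and 1.43 ± 0.450 CPM in control oocytes (log2 0.71, SE 0.23, edgeR adjusted p = 0.28). The stromal proteoglycan Dcn had 1.37 ± 0.224 CPM in knockout oocytes and 0.823 ± 0.112 CPM in control oocytes (log2 0.71, SE 0.24, adjusted p = 0.31). The steroidogenic enzyme Cyp11a1 had 9.23 ± 0.200 CPM in knockout oocytes and 6.71 ± 0.731 CPM in control oocytes (log2 0.44, SE 0.11, adjusted p = 0.13). Of the other tested granulosa and cumulus markers, Cyp19a1 (log2 -0.09, SE 0.08) and Star (-0.21, SE 0.37) lay lower with the knockout. Fshr (0.39, SE 0.475), Has2 (0.30, SE 0.24) and Kitl (0.03, SE 0.11) lay higher. The part of these markers in the Sox2 difference was not tested.

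Klf4 libraries did not overlap between oocyte genotypes either: 22.1, 21.9 and 22.8 CPM in knockout oocytes lay above 18.9, 17.3 and 19.9 CPM in control oocytes. The change was 0.23 (SE 0.08, edgeR adjusted p = 0.33), which did not pass. Of the 8 tested members, 2 had libraries that did not overlap, both higher, beside 15.7% of all tested genes, 10.1% as higher and 5.66% as lower. The remaining tested members overlapped between genotypes, with log2 changes of -0.51 (SE 0.39) for Klf5, -0.03 (SE 0.04) for Klf17, -0.02 (SE 0.07) for Nr5a2, 0.11 (SE 0.14) for Tfap2c, -0.00 (SE 0.05) for Pou5f1 and 0.06 (SE 0.47) for Cdx2 (edgeR adjusted p = 0.74 to 0.99).

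In 2-cell embryos none of the 10 members passed the test, beside 0.026% of 15414 genes called (4 genes higher and 0 lower, while 491 genes had an unadjusted p under 0.05). No member had an unadjusted p under 0.05, and DESeq2 and limma-voom called 0 members as well. Daxx itself was also not called by edgeR (adjusted p = 0.54), at -0.75 on the log2 scale with 0.19 as its SE. Yet its CPM in each maternal knockout embryo library lay below those of all control embryo libraries. With 2 pools against 3, the absence of calls therefore does not show that the members were unchanged. The log2 changes were 0.32 (SE 0.22) for Sox2, 0.09 (SE 0.15) for Klf5, 0.05 (SE 0.16) for Pou5f1, 0.03 (SE 0.14) for Klf17, -0.06 (SE 0.16) for Tfap2c, -0.10 (SE 0.14) for Klf4, -0.13 (SE 0.19) for Tead4, -0.16 (SE 0.15) for Nr5a2, -0.64 (SE 0.38) for Nanog and -0.87 (SE 0.65) for Cdx2.

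Nanog was the member whose embryo libraries did not overlap, at 1.82 and 1.06 CPM in maternal knockout embryos against 2.06, 1.93 and 2.60 CPM in control embryos, a pattern that 17.8% of all tested genes showed, 11.4% as higher and 6.38% as lower. Its summed reads, 68 against 134, gave a ratio of 0.663 with a 95% counting interval from 0.488 to 0.895, and the edgeR test over libraries gave an adjusted p = 1.00. Leaving out a library moved its log2 change between -1.05 and -0.35. Sox2, the member called in oocytes, had 17.3 ± 3.91 CPM in maternal knockout embryos (SD, n = 2) and 13.6 ± 1.94 CPM in control embryos (SD, n = 3), and its groups overlapped. The knockout embryo library with the higher Sox2 value, replicate 2, was also that with the high Lars2 share of 1.81%. Without it and the control library of 1.85%, a fit chosen after seeing the data, the Sox2 change was 0.01. That fit kept only the maternal knockout library with the lower Sox2 value, so the part of the Lars2 share was not tested.

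**Figure D4:**
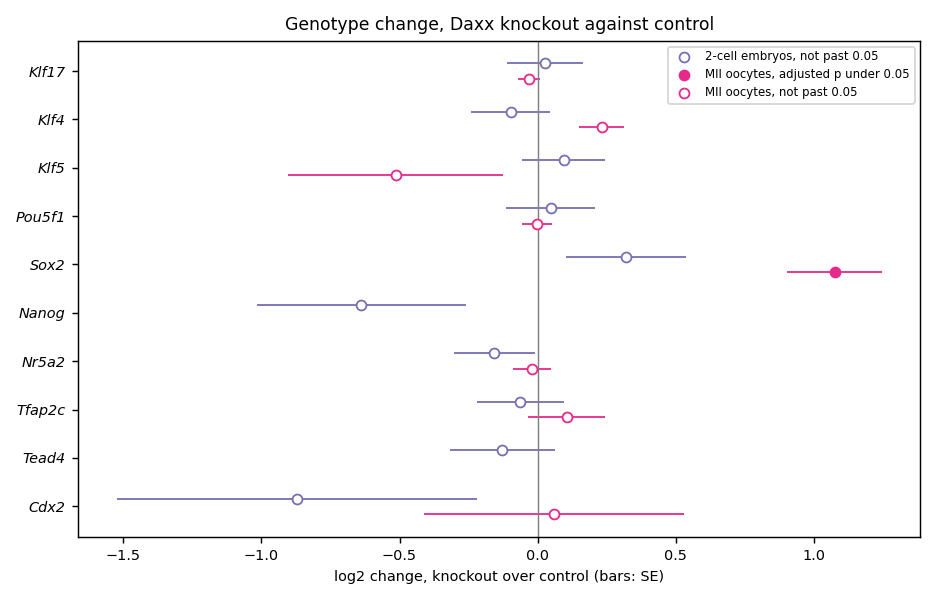
Log2 change between genotypes (x axis, knockout over control) for each gene in 2-cell embryos (upper point of a pair) and MII oocytes (lower point), with SE as bars. Sox2 in oocytes, at 1.08, is the filled point with adjusted p under 0.05; Nanog and Tead4 were tested in embryos and not in oocytes.

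The difference between the genotype effects of the stages (embryo minus oocyte, 11 libraries in 1 fit) passed for none of the 10 members, beside 0.0118% of the 17018 genes tested (2 genes, while 920 had an unadjusted p under 0.05). DESeq2 and limma-voom called 0 members there too, although DESeq2 gave no adjusted p for Sox2, Nanog and Cdx2. It was -0.77 (SE 0.27, edgeR adjusted p = 0.91) for Sox2 and -0.34 (SE 0.14, adjusted p = 0.91) for Klf4, the 2 members with p under 0.05 before adjustment, so the Sox2 call in oocytes and its absence in embryos are not shown to differ.

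Genes around the 10 factors were counted in 6 lists. Their counts are to be read against the shares of all tested genes, 42.5% called higher and 37.7% lower between the knockout groups and 43.1% and 40% in controls. Among 24 further genes of pluripotency and the inner cell mass, 22 were tested between the knockout groups and 16 were higher in embryos and 5 lower, and 14 and 5 of 20 tested in controls, with median log2 changes of 2.19 and 1.63. The genes with the smallest p included Fbxo15, an OCT4 and SOX2 target, with 529 ± 56.8 CPM in maternal knockout embryos and 596 ± 41.5 CPM in control embryos, against 8.59 ± 0.344 CPM in knockout oocytes and 10.1 ± 0.653 CPM in control oocytes. The T-box factor Tbx3 changed by 4.22 (SE 0.12) between the knockout groups and 4.28 (SE 0.12) in controls, and Dppa4, a chromatin-bound protein of pluripotent cells, by 3.09 (SE 0.13) and 3.28 (SE 0.15). The MYC family genes were among the named ones as well, with 15.2 CPM of Myc and 13.2 CPM of Mycn in maternal knockout embryos, against at most 0.0528 CPM of either in knockout oocytes.

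Trophectoderm genes moved in both directions. Of the 14 tested, 8 were higher and 6 lower in embryos between the knockout groups, and 8 higher and 4 lower in controls, with medians of 2.51 and 2.70. The counts of lower genes lay near or under the shares over all genes. The genes with the smallest p had their higher level in oocytes. The adhesion protein Cdh1 had 142 ± 31.0 CPM in maternal knockout embryos and 117 ± 16.8 CPM in control embryos, against 553 ± 23.8 CPM in knockout oocytes and 542 ± 8.76 CPM in control oocytes. The growth factor receptor Fgfr2 fell by 2.75 (SE 0.13) between the knockout groups and 2.59 (SE 0.12) in controls, Ets2 by 2.12 (SE 0.09) and 2.29 (SE 0.13), and the trophoblast factor Gata3 by 3.05 (SE 0.17) and 2.90 (SE 0.19). The 8 genes higher in embryos were the same in both genotypes and are named here after their values were seen. They were Dlx3, Tfeb, Eomes, Gata2, Esx1, Id2, Krt18 and Hand1. Tead4 was thus higher in embryos as these 8 were, while Gata3, which also acts in the trophectoderm, was lower.

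Of 10 primitive endoderm genes tested between the knockout groups 4 were higher and 3 lower in embryos, and of 9 in controls 4 and 3. The medians of 1.04 and -0.43 differ in sign, but the control median is the change of Gata6 (SE 0.31), which was not called. Of the 9 genes tested in both, 0 were called in opposite directions. Gata4, a GATA factor of this lineage, had 142 ± 9.31 CPM in maternal knockout embryos and 148 ± 36.6 CPM in control embryos against 41.9 ± 4.89 CPM in knockout oocytes and 35.5 ± 3.59 CPM in control oocytes. The adaptor Dab2 fell by 0.80 (SE 0.11) between the knockout groups and 0.82 (SE 0.09) in controls. Among the 25 genes of the Hippo pathway and TEAD partners, 13 were higher and 8 lower in each genotype, both comparisons shared all 13 and all 8, and the medians were 0.40 between the knockout groups and 0.36 in controls. Together these calls made a share near the background of 80.2% and 83.1% called, so the count shows nothing particular to the pathway. Ajuba, a LIM protein that restrains Hippo signalling, had 74.2 ± 25.5 CPM in maternal knockout embryos and 71.0 ± 19.2 CPM in control embryos, against 0.105 ± 0.138 CPM in knockout oocytes and 0.0254 ± 0.0251 CPM in control oocytes. The TEAD coactivator Wwtr1 (TAZ) changed by 3.84 (SE 0.14) between the knockout groups and 4.08 (SE 0.15) in controls. Sav1, a scaffold of the pathway's kinases, fell by 1.31 (SE 0.10) and 1.30 (SE 0.10).

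Yap1, the other TEAD coactivator, and the TEAD paralogs are given here after their values were seen. Yap1 had 1447 ± 70.3 CPM in maternal knockout embryos and 1371 ± 58.6 CPM in control embryos against 820.8 ± 6.33 CPM in knockout oocytes and 820.6 ± 18.3 CPM in control oocytes. Tead1 had 14.9 ± 2.88 CPM and 14.1 ± 1.79 CPM in the embryo groups against 6.71 ± 0.953 CPM and 7.08 ± 1.71 CPM in knockout and control oocytes. Tead2 had 15.3 ± 0.823 CPM and 13.4 ± 2.73 CPM in the embryo groups against 8.43 ± 2.02 CPM and 6.93 ± 0.407 CPM in knockout and control oocytes. Tead3 was lower in embryos, at 9.90 ± 2.66 CPM and 8.09 ± 0.562 CPM against 14.4 ± 1.61 CPM and 14.2 ± 1.86 CPM. The changes were 0.77 (SE 0.08) and 0.72 (SE 0.08) for Yap1, 1.1 (SE 0.18) and 0.96 (SE 0.19) for Tead1, 0.81 (SE 0.21) and 0.93 (SE 0.17) for Tead2 and -0.59 (SE 0.18) and -0.84 (SE 0.16) for Tead3, between the knockout groups and in controls (edgeR adjusted p at most 0.013).

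Other Krüppel-like and Sp genes mostly rose with the stage, with 13 of 17 tested higher and 3 lower between the knockout groups and 13 of 15 higher and 2 lower in controls (medians 1.38 and 1.94). Klf9, a family member known as hormone-responsive, had 113 ± 36.5 CPM in maternal knockout embryos and 112 ± 37.1 CPM in control embryos, against 1.58 ± 0.129 CPM in knockout oocytes and 0.978 ± 0.225 CPM in control oocytes. The zinc finger factor Sp4 changed by 3.82 (SE 0.15) and 4.0 (SE 0.20), and Sp1 by 1.64 (SE 0.07) and 1.70 (SE 0.10), between the knockout groups and in controls. In the list of other Sox, Pou, AP-2, Nr5a and Cdx genes, 12 of 19 tested were higher and 6 lower between the knockout groups, and 10 of 17 higher and 5 lower in controls (medians 0.51 in both). The counts of lower genes lay near or under the background. The medians over all genes were 0.09 and 0.07. Sox12 changed by 4.25 (SE 0.22) and 4.32 (SE 0.23) and Sox4 by 6.67 (SE 0.34) and 7.36 (SE 0.46), while the octamer-binding Pou2f1 fell by 1.53 (SE 0.10) and 1.78 (SE 0.09). The stage changes of the genes that the rule named from the 6 lists passed edgeR's test with an adjusted p of at most 0.000107.

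Between genotypes the lists held few calls. In oocytes 1 of 9 tested trophectoderm genes and 1 of 9 tested primitive endoderm genes were called, both higher in the knockout, beside 0.583% of all genes tested. In the other 4 lists 0 genes were called. Over all 6 lists 16 of 86 tested entries had p under 0.05 before adjustment, beside 1464 of all 14235 genes. In those 4 lists it was 10 of 68. DESeq2 made 5 calls in the 6 lists and 3 in those 4, beside 154 genes higher and 73 lower over all genes. The calls by limma-voom were 1 in the 6 lists and 0 in those 4, beside 45 higher and 12 lower. The simple-epithelial keratin Krt8 had 2.92 ± 0.460 CPM in knockout oocytes and 1.48 ± 0.0560 CPM in control oocytes (log2 0.96, SE 0.18, edgeR adjusted p = 0.0405). Lama1, a laminin chain of basement membranes, had 22.1, 22.5 and 22.4 CPM in knockout oocytes against 17.1, 16.8 and 15.4 CPM in control oocytes (log2 0.43, SE 0.08, adjusted p = 0.0275). Leaving out knockout oocyte replicate 1, 2 or 3, or control oocyte replicate 1 or 2, left 0 calls in both lists, as did the fit over all 11 libraries, and limma-voom did not call Krt8. In embryos 0 genes of the 6 lists passed, with 7 of 104 tested entries under an unadjusted p of 0.05, beside 491 of all 15414 genes. DESeq2 made 1 call in the lists, beside 9 genes higher and 1 lower over all genes. The calls by limma-voom were 0, beside 2 higher and 0 lower. For the difference between stages 0 genes passed as well, with 8 of 110 under an unadjusted p of 0.05, beside 920 of all 17018 genes. DESeq2 and limma-voom made 0 calls in the lists there.

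The genes most alike to each factor were sought by Pearson's r of log2(CPM + 0.5) over the 11 libraries, among 9470 genes with a mean of at least 10 CPM in a group. These values mostly reflect the stage difference that the libraries share. The closest were Zfp867 for Klf4 (r = 0.9995), Rprd1b for Klf5 (0.9996), Mt2 for Tead4 (0.9998), Rbsn for Nr5a2 (0.999), Tesc for Klf17 (0.988), Rpph1 for Tfap2c (0.977) and Btbd2 for Pou5f1 (0.907). Sox2 was closest to the potassium channel gene Kcna1 (r = 0.994), which had 3.81 CPM in knockout oocytes and 1.76 CPM in control oocytes. Nanog and Cdx2 had no group mean of 10 CPM and were not compared in this way.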

How the data were processed

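Per the labels' protocols, libraries came from the SoLo RNA-Seq system. The authors deposited whole-number counts of reads per gene for 24421 Entrez identifiers in 11 libraries, with a gene width in bases. Per the submitters' processing notes, STAR 2.5.0a and SAMtools were used with GRCm38 (mm10). Counting program, strand use and any removal of duplicates: not given in the sources used here. Symbols and coordinates came from RefSeq GRCm38.p6, which matched 24387 identifiers, and the other 34 held at most 0.0325% of any library's reads. Libraries were grouped by the labels. For maternal knockout embryos, replicate 1 is not analysed here.

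CPM are counts scaled to the library total, per kilobase of the deposited width where stated. Each comparison used edgeR 4.0.16 in R 4.3.3 on all genes that passed filterByExpr, with TMM scaling, robust quasi-likelihood F tests, Benjamini-Hochberg adjustment over all genes tested and a threshold of 0.05. The SE is the log2 change divided by the square root of F. Stage comparisons share libraries with the genotype comparisons. Intervals (95%) and floors (3 counts) cover counting error only. The labels do not say that pools of a group came from different females, so p-values measure the spread between pools, with 2 pools in the maternal knockout embryo group. Replicates were compared by chi-square per degree of freedom (5.10 to 37.2), and none was treated as a duplicate. The tests were checked on simulated counts.

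The members and lists were chosen with earlier results of these data known. All 10 members are named in every comparison, with every list gene past the threshold between genotypes and up to 4 per list with the smallest p between stages. Alternatives were DESeq2 1.42.0, limma-voom (limma 3.58.1), RLE scaling, other filters, a block for the replicate number, 1 fit over all libraries and fits leaving out each library. A fit without the 2 embryo libraries of highest Lars2 share was added after seeing the data.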

Additional observations from a re-analysis of the deposited data

How the results depend on the processing

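Over the members, 65 recomputed counts of calls stayed within 1.5 times the reported count and 4 moved: the oocyte count of 1 (Sox2) ranged from 0 to 1 when a library was left out. Of the recomputed log2 changes, 605 kept their direction and their side of the threshold, 10 no longer passed (Sox2 in oocytes and Klf17 between stages, without single libraries), 2 newly passed (Pou5f1 between stages) and 26 turned round, each in a change that had not passed. When a library was left out, these ranged in oocytes from -0.0666 to 0.0537 (Nr5a2), -0.0373 to 0.192 (Tfap2c), -0.0516 to 0.0337 (Pou5f1) and -0.22 to 0.36 (Cdx2). In embryos they ranged from -0.249 to 0.0345 (Klf4), -0.0037 to 0.18 (Klf5), -0.15 to 0.18 (Klf17), -0.387 to 0.0380 (Nr5a2), -0.135 to 0.0839 (Tfap2c), -0.0855 to 0.191 (Pou5f1) and -0.259 to 0.0905 (Tead4). The difference between stages ranged from -0.11 to 0.20 (Klf17), -0.356 to 0.0422 (Nr5a2) and -0.10 to 0.18 (Pou5f1), and the Cdx2 change between the knockout groups from -0.42 to 1.12. Without both embryo libraries of highest Lars2 share, chosen after seeing the data, the embryo changes were 0.0699 for Klf4 and 0.0170 for Nr5a2, and the Nr5a2 difference between stages was 0.0214. In CPM without length, 6 of 10 members kept their place in the order in knockout oocytes and in maternal knockout embryos, the cause being gene length by construction.

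Whether replicate numbers pair the libraries is not known. Deviations from group means correlated between same-numbered libraries at -0.16, 0.14 and 0.05 for oocyte genotypes and at -0.13 and -0.05 for embryo genotypes. Oocyte libraries of unlike number correlated at -0.30 to 0.24. With so few libraries in a group their deviations are tied to each other, so these values cannot exclude pairing. With a replicate block, 1 member was called in oocytes (Sox2, adjusted p = 0.0138), as without it, Krt8 was not called there, and the embryo changes of Klf17 and Pou5f1 were -0.00024 and -0.0825.

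Counts over all genes moved more. In oocytes DESeq2 called 154 genes higher and 73 lower, against 64 and 19 by edgeR. In embryos the fit without both libraries of highest Lars2 share called 30 higher and 2 lower, against 4 and 0. The cause was not tested. Depth limits Nanog, Cdx2 and, in oocytes, Klf5 and Tead4, which rest on at most 60 reads in a library.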
